A study of Mus musculus with 6 samples.

Results

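A set of 7 genes for proteins with Tudor domains that work in germ granules or in small RNA silencing, Tdrd1, Tdrd6, Tdrd7, Tdrd12, Tdrkh, Rnf17 and Snd1, was followed in mouse testis across RNA precipitated with anti-MVH antibody, RNA precipitated with normal rabbit IgG, and total RNA. They were chosen by name, and each was represented by 1 probe, so that 7 of the 23473 probes on the array, and 7 of 16390 different gene symbols, are described. Tdrd12 and Snd1 were listed on the platform under the older names 2410004F06Rik and AL033314. Each of the 7 probes had a value on every array.

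A Tudor domain is a small fold that binds methylated arginine or lysine. In the germ line the arginines it reads lie near the start of the Piwi proteins, so that Tudor proteins gather Piwi proteins, helicases and other factors into granules, where piRNAs, the small RNAs that silence transposons, are made or used. MVH, the mouse Vasa protein encoded by Ddx4, lies in the same granules, among them the chromatoid body of round spermatids.

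The 3 groups were the MVH precipitate, the IgG precipitate and total RNA with no antibody, which the labels call WCE. Each held 2 arrays, numbered 1 and 2, and all came from testis of the strain given as C57/BL6, with no genotype change or treatment named and the age not given in the sources used here. Per the labels' protocols, testes were dispersed with needles, the cell pellet was lysed, and both antibodies were used on cleared lysate overnight before washing and RNA extraction. No label ties a number to an animal, so p-values measure no more than how far these samples spread, and that spread may be technical. In RNA from whole testis, fewer cells of a type and less RNA per cell cannot be told apart, and the amount of RNA recovered in a precipitate was not measured.

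Between 22090 and 22965 probes were listed per array. The second IgG array stood apart, with a median deposited intensity of 20.8 against 30 on the other arrays and with 1383 blank probes against 508 to 1063. Intensities below are scaled so that every array has a median of 30. The SD of the log2 difference between the 2 arrays of a group was 0.47 with MVH, 0.6 with IgG and 0.45 in total RNA. Markers of spermatocytes and of round and elongating spermatids had values on all 6 arrays. The marker lists of somatic cells differed in how they moved. The 5 Leydig cell markers with values summed to 509 and 490 on the MVH arrays, 3000 and 1880 on the IgG arrays and 658 and 1130 on the total RNA arrays, and 4 of the 5 were lower with MVH than with IgG by the test used below. The 4 peritubular markers summed to 534 and 336, 3150 and 1460, and 399 and 492 in the same order, and 2 of the 4 were lower with MVH than with IgG. Of 6 Sertoli cell markers, only Amhr2 was lower with MVH than with IgG, and their sums were 4020 and 3920 on the MVH arrays, 8580 and 6630 on the IgG arrays and 5300 and 5640 on the total RNA arrays. Of 4 macrophage markers 0 passed by limma and 0 had an unadjusted p under 0.05, with sums of 85.2 and 103, 85.7 and 80.8, and 115 and 109 in the same order. None of these somatic markers was blank on any array. The sums rest on their brightest genes. On the IgG arrays, Acta2 gave 3040 and 1390 of the peritubular sums, and Clu (5910 and 5260) with Amhr2 (2570 and 1280) most of the Sertoli sums. The part of these shifts in the differences of the Tudor genes was not tested.

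The comparison of the MVH with the IgG precipitate asks which RNAs were more or less abundant, relative to the array median, than in the control precipitate. Rnf17 was higher with MVH, by 3.84-fold, and was the only one of the 7 genes to pass the test. Tdrd1 lay on the same side of zero without passing, and Tdrd6, Tdrd7, Tdrd12, Tdrkh and Snd1 lay on the other side without passing. The test was limma on log2 intensities over all probes, with the threshold at a Benjamini-Hochberg adjusted p of 0.05. It called 1 of the 7 genes higher and 0 lower, where 3.82% of the 21574 probes tested were called higher and 4.15% lower. At an unadjusted p under 0.05 there were 3 of the 7 genes, Rnf17, Tdrd6 and Tdrd7, and 5494 of all probes. The median log2 difference of the 7 was -0.49, against 0.07 for all probes.

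Rnf17 encodes a protein with a RING finger and Tudor repeats, also named TDRD4, that forms granules of its own in male germ cells and is needed for spermatids to develop. Its intensities were 22 and 57.7 on the MVH arrays, 11.5 and 7.5 on the IgG arrays and 12.8 and 10.1 on the total RNA arrays. Both MVH arrays were above every other array, and the IgG and total RNA arrays overlapped. The log2 difference between the MVH and IgG precipitates was 1.94 ± 0.45 (SE, n = 2 per group), with a 95% interval of 0.91 to 2.97 and a limma adjusted p of 0.0377. Only 0.769% of all probes tested had a larger positive difference. The probe was dim, between the percentiles 21 and 62.3 of the listed probes on its array. The MVH arrays also disagreed on it by 2.62-fold, a gap exceeded by 1.25% of probes in that group, and MVH 2 gave the higher value. The log2 difference was 1.24 without MVH 2 and 2.64 without MVH 1, and 2.25 and 1.63 without IgG 1 and IgG 2. When only the 4 arrays compared were fitted, the value stayed at 1.94 and the call was lost (limma adjusted p = 0.0831). In that fit 0 of all 21574 probes were called.

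Some germ cell markers were also higher with MVH than with IgG. The 5 round spermatid markers had a median log2 difference of 0.95 and sums of 33600 and 47500 on the MVH arrays, 22000 and 25200 on the IgG arrays and 27300 and 34400 on the total RNA arrays, and 1 of the 5, Tssk1, passed. Of 6 spermatocyte markers, with a median of -0.04, Sycp3, of the synaptonemal complex, passed at 1.79 (limma adjusted p = 0.0349), with 422 and 901 on the MVH arrays and 229 and 139 on the IgG arrays, MVH 2 again being the higher. Of 3 spermatogonium markers tested, with a median of 0.29, Dmrtb1 passed at 1.53 (limma adjusted p = 0.0266). Gfra1 (0.29) and Stra8 (-0.73) did not pass, and Stra8 lay on the other side of zero. Kit, blank on IgG 1 and so not tested here, had 4.8 and 8.7 on the MVH arrays and 27.8 on IgG 2. Of 5 elongating spermatid markers 0 passed by limma and 1 had an unadjusted p under 0.05, with a median of 0.03. Their part in the value of Rnf17 was not tested.

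**Figure D1:**
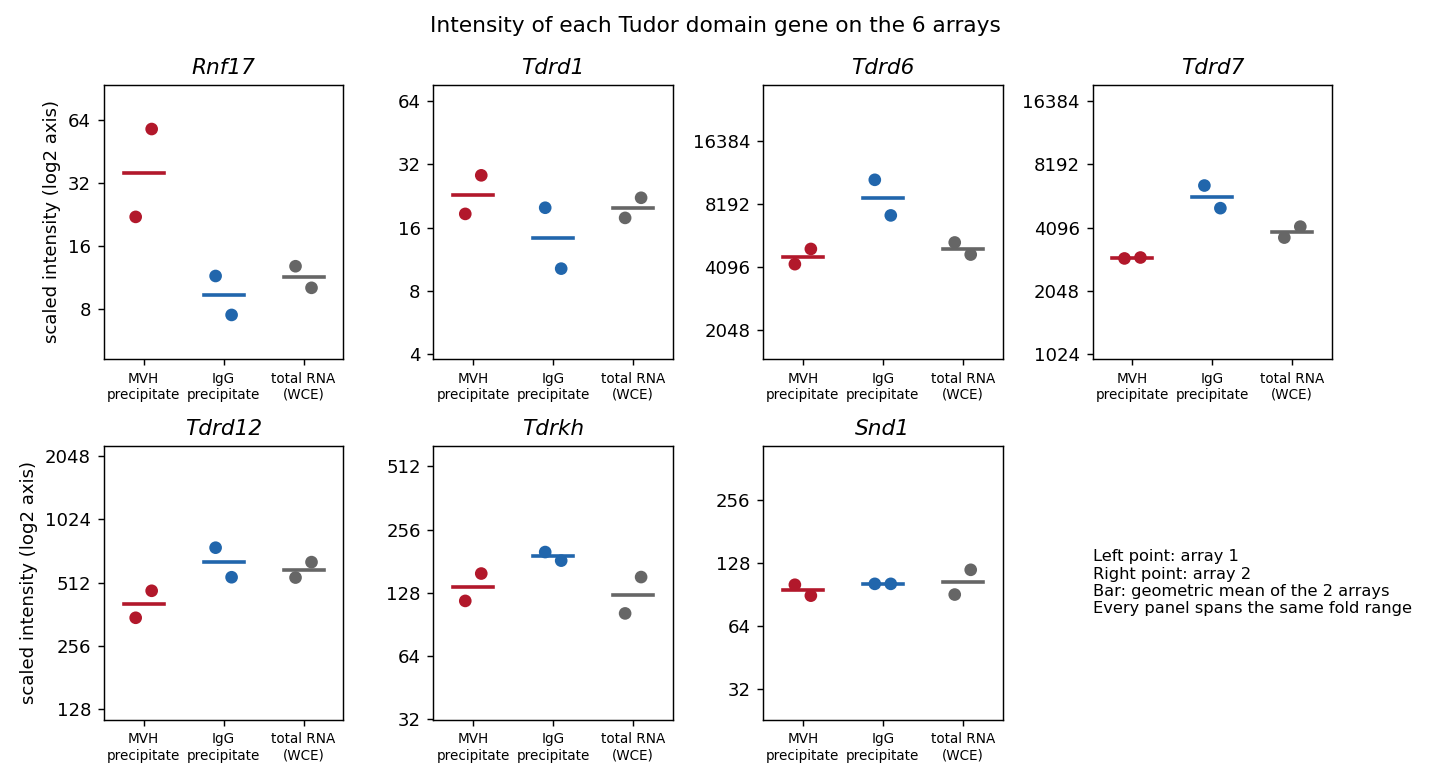
Scaled intensity of the 7 genes on each array, on a log2 axis that spans the same fold range in every panel; the left and right points of a group are its arrays 1 and 2, and the bar is their geometric mean. The MVH precipitates stand above all other arrays for Rnf17 (22 and 57.7), while the IgG precipitates stand above all other arrays for Tdrd6, Tdrd7 and Tdrkh.

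Tdrd6 and Tdrd7 are both proteins of the chromatoid body. Tdrd6 is needed for that body to keep its structure in spermatids, and Tdrd7 for its assembly in male germ cells and, outside the testis, for a clear lens. Tdrd6 had intensities of 4240 and 5010 on the MVH arrays, against 10700 and 7240 on the IgG arrays, and 5380 and 4710 on the total RNA arrays. Tdrd7 had 2920 and 2950 on the MVH arrays, against 6500 and 5070 on the IgG arrays, and 3670 and 4140 on the total RNA arrays. For both genes the MVH arrays were below both IgG arrays. The log2 difference between the MVH and IgG precipitates was -0.93 ± 0.30 for Tdrd6, with a 95% interval of -1.61 to -0.25 and a limma adjusted p of 0.0901. It was -0.97 ± 0.27 for Tdrd7, with a 95% interval of -1.59 to -0.35 and a limma adjusted p of 0.0644. Neither passed, but both passed with an offset of 4 before log2 (adjusted p = 0.0477 for Tdrd6 and 0.0268 for Tdrd7), without the dimmest 25% of probes (0.0432 and 0.0287) and with a variance trend (0.0301 and 0.0199). Tdrd7 also passed with quantile normalization (log2 difference -1.04, adjusted p = 0.0479). Neither gene passed in any other of the 16 alternatives. With no centring the log2 differences were -0.67 for Tdrd6 and -0.7 for Tdrd7 (limma adjusted p = 0.394 and 0.349). With only the 4 arrays compared, the limma adjusted p was 0.146 and 0.114.

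Another 3 of the genes serve piRNA production close to the mitochondria of germ cells. Tdrd1 binds the Piwi protein encoded by Piwil2, Tdrd12 carries a helicase-like part beside its Tudor domains and is needed for secondary piRNAs, and Tdrkh, also named Tdrd2, sits at the mitochondrial surface and takes part in trimming piRNA ends. Tdrd1 had intensities of 18.6 and 28.4 on the MVH arrays, against 19.9 and 10.2 on the IgG arrays, and 17.8 and 22.2 on the total RNA arrays. The 3 groups overlapped, and the 2 IgG arrays differed by 1.94-fold. The log2 difference between the MVH and IgG precipitates was 0.69 ± 0.38, with a 95% interval of -0.18 to 1.55 (limma adjusted p = 0.301).

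Tdrd12 had intensities of 348 and 468 on the MVH arrays, against 751 and 543 on the IgG arrays, and 541 and 641 on the total RNA arrays. The MVH arrays were the lowest, and the IgG and total RNA arrays overlapped. The log2 difference between the MVH and IgG precipitates was -0.66 ± 0.30, with a 95% interval of -1.35 to 0.03 (limma adjusted p = 0.213). Tdrkh had intensities of 117 and 158 on the MVH arrays, against 200 and 182 on the IgG arrays, and 102 and 152 on the total RNA arrays. Here the IgG arrays were the highest, and the MVH and total RNA arrays overlapped. The log2 difference between the MVH and IgG precipitates was -0.49 ± 0.31, with a 95% interval of -1.19 to 0.22 (limma adjusted p = 0.372).

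Snd1, also named Tudor-SN, is made in most tissues, joins nuclease-like domains to a Tudor domain, and has been tied to transcription, splicing and the RNA-induced silencing complex. Its 6 arrays spanned the narrowest range of the 7 genes, with intensities of 101 and 89.6 on the MVH arrays, 102 and 102 on the IgG arrays, and 90.7 and 119 on the total RNA arrays. The log2 difference between the MVH and IgG precipitates was -0.10 ± 0.28, with a 95% interval of -0.73 to 0.53 (limma adjusted p = 0.863).

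Without a test, the arrays of the 2 precipitates did not overlap for 6 of the 7 genes, 1 higher with MVH and 5 lower. Over all probes tested, 29.9% were higher and 23.8% lower with MVH without overlap. For Snd1 the gap was 0.01 on the log2 scale, less than any spread between replicates seen here except that of Snd1 itself with IgG.

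**Figure D2:**
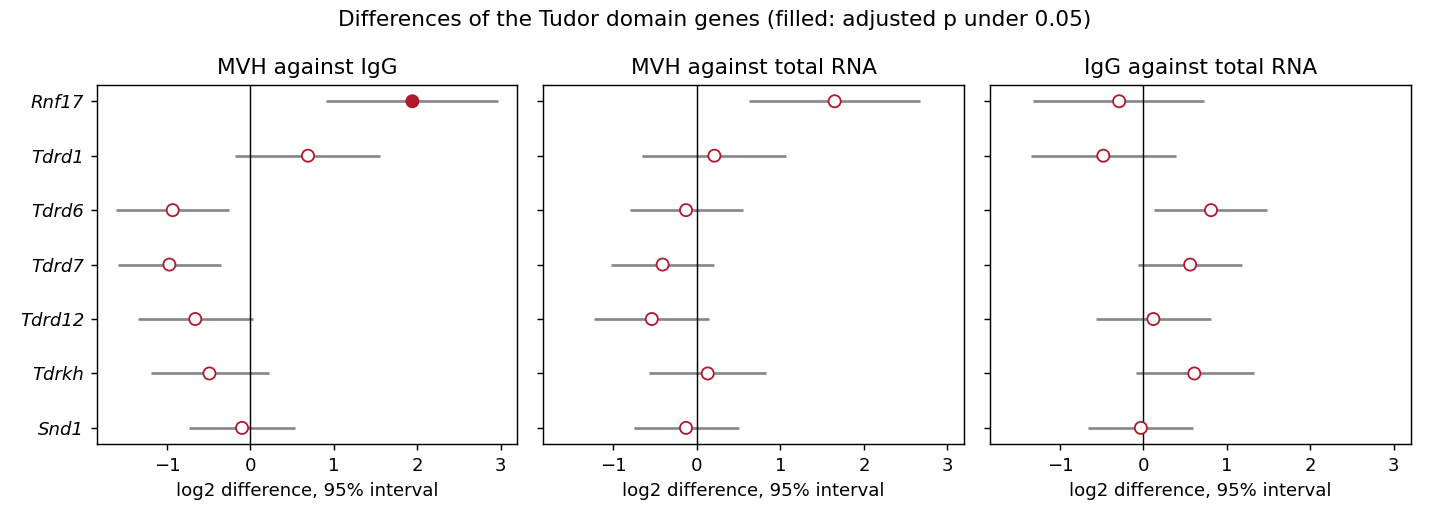
Log2 differences of the 7 genes in the 3 comparisons, with 95% intervals from the limma fit as horizontal lines; filled points passed an adjusted p of 0.05. Rnf17 against IgG (1.94) is the only filled point, and its difference from total RNA (1.65) has an interval above zero but did not pass.

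Set against total RNA, the MVH precipitate shows how far each RNA stood above or below its abundance in the tissue. Rnf17 again had the largest value, 3.13-fold above total RNA, and the other 6 genes lay within 0.54 of zero on the log2 scale. Limma called 0 of the 7 genes, where 0.0138% of the 21793 probes tested were called in either direction, 0.00459% higher and 0.00918% lower. At an unadjusted p under 0.05 there were 1 of the 7 genes and 1947 of all probes. The log2 difference of Rnf17 was 1.65 ± 0.45 (SE, n = 2 per group), with a 95% interval of 0.62 to 2.67, an unadjusted p of 0.00559 and a limma adjusted p of 0.306. Only 0.505% of all probes had a larger positive difference. Without MVH 2 the value was 0.95.

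Among the other genes, Tdrd12 differed by -0.54 ± 0.30 from total RNA and Tdrd7 by -0.41 ± 0.27, and for both the MVH arrays were below both total RNA arrays. Arrays without overlap were seen for 2 of the 7 genes below total RNA and 1, Rnf17, above it, and for 21.6% of all probes below and 18.7% above. The limma adjusted p was 0.678 for Tdrd12 and 0.776 for Tdrd7. Tdrd1 (0.21), Tdrkh (0.13), Tdrd6 (-0.13) and Snd1 (-0.13) overlapped with total RNA. Their 95% intervals reached from -0.66 to 1.07 for Tdrd1, -0.57 to 0.83 for Tdrkh, -0.80 to 0.55 for Tdrd6 and -0.75 to 0.50 for Snd1. These intervals hold both directions, so that no difference was detectable in these genes with 2 arrays per group.

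The IgG precipitate against total RNA gives the same genes in the control precipitate, relative to their abundance in the tissue. Tdrd6, Tdrkh and Tdrd7 had geometric means 1.75-fold, 1.53-fold and 1.47-fold that of total RNA, with no overlap between the arrays and without passing the test. The summed Leydig, peritubular and Sertoli markers given above were also highest on the IgG arrays, with median log2 differences from total RNA of 1.17, 1.76 and 0.08. Within these lists, the Sertoli markers Sox9 (-0.14), Fshr (-0.63) and Gata4 (-0.2) and the peritubular marker Cnn1 (-0.18) were below total RNA. The other Sertoli markers, Clu (0.3), Wt1 (0.71) and Amhr2 (1.12), and the other peritubular and Leydig markers were above it. The medians were -0.46 for macrophage, -0.55 for spermatogonium, 0.14 for spermatocyte, -0.47 for round spermatid and -0.12 for elongating spermatid markers, and limma called 0 markers of any of these lists. At an unadjusted p under 0.05 there were 4 of 5 Leydig, 3 of 4 peritubular, 2 of 6 Sertoli and 2 of 5 round spermatid markers, and 1 in each other list. The part of any of these lists in the values of the Tudor genes was not tested. Limma called 0 of the 7 genes, where 0.00934% of 21413 probes were called in either direction. At an unadjusted p under 0.05 there were 1 of the 7 genes, Tdrd6, and 3900 of all probes. The log2 difference was 0.81 ± 0.30 for Tdrd6, with a 95% interval of 0.13 to 1.48 (limma adjusted p = 0.204), 0.61 ± 0.31 for Tdrkh (0.339) and 0.56 ± 0.27 for Tdrd7 (0.324). Arrays above total RNA without overlap were seen for 3 of the 7 genes and 20% of all probes, and arrays below it for 0 of the 7 and 29.6% of all probes. Tdrd12 (0.12), Snd1 (-0.03), Rnf17 (-0.29) and Tdrd1 (-0.48) overlapped with total RNA.

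The comparisons share arrays, so their values are not independent. Side by side, Rnf17 had log2 differences of 1.94 from IgG and 1.65 from total RNA, so that the MVH arrays were high and the controls close together. Tdrd6 had -0.93 from IgG and -0.13 from total RNA, and Tdrkh had -0.49 and 0.13, so that in both the IgG arrays were high and the others close together. In Tdrd7 the order was IgG, total RNA and MVH (-0.97 from IgG and -0.41 from total RNA), with no 2 groups overlapping. Tdrd12 had -0.66 from IgG and -0.54 from total RNA, which puts the MVH arrays lowest.

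Over the 6 arrays, the profiles of Tdrd6 and Tdrd7 were the closest among the 7 genes, with a Euclidean distance of 0.454 between their log2 values after each was centred on its own mean. Tdrd7 and Tdrd12 followed at 0.545. Rnf17 was farthest from the rest, at 1.74 from Tdrd1 and 2.57 to 3.17 from the other 5. Its median distance from the 21240 other probes listed on all arrays was 2.41. Among 14792 probes with a descriptive gene symbol, those nearest to Rnf17 were Hbp1, a transcriptional repressor (0.435), Izumo3, a protein of the sperm acrosome (0.486), and Erp44, a chaperone of the early secretory pathway (0.488). The intensities of Hbp1 were 39.4 and 75.7 on the MVH arrays, against 21.8 and 11.2 on the IgG arrays, and 21.1 and 17.7 on the total RNA arrays. Those of Izumo3 were 1890 and 5280 on the MVH arrays, against 757 and 716 on the IgG arrays, and 1130 and 1030 on the total RNA arrays. As for Rnf17, the second MVH array was the higher one for both, and for Erp44 (53 and 144). These distances describe 6 arrays and carry no test.

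Other genes with Tudor or related domains were called in both directions between the precipitates. Of 25 listed genes, 21 were tested, of which 1 was higher with MVH, 3 were lower and 17 did not pass, with a median log2 difference of -0.12. Akap1, a mitochondrial anchor for protein kinase A that carries a Tudor domain, was the higher one, at 389 and 249 on the MVH arrays, against 78.8 and 60.6 on the IgG arrays, and 145 and 114 on the total RNA arrays (log2 difference from IgG 2.17 ± 0.32, limma adjusted p = 0.0172). The total RNA arrays lay between the other groups. Tdrd5, a chromatoid body protein needed for spermatid development, was lower, at 73.3 and 77.8 on the MVH arrays, against 244 and 221 on the IgG arrays, and 55.7 and 68.2 on the total RNA arrays (-1.62 ± 0.27, adjusted p = 0.0181). Its MVH arrays lay close to total RNA, as those of Tdrd6 did. Smn1, of the complex that assembles spliceosomal particles, differed by -1.36 (adjusted p = 0.046) and Uhrf1, which reads DNA and histone marks, by -1.28 (adjusted p = 0.0369). Tdrd3, a translation-linked Tudor protein, had 93.8 and 167 on the MVH arrays, against 38.8 and 61.6 on the IgG arrays, and did not pass (1.36 ± 0.36, adjusted p = 0.0547). It is named after its values were seen. Against total RNA, limma called 0 of the 21 for either precipitate. At an unadjusted p under 0.05 there were 4 of 21 for MVH, beside 1947 of 21793 probes, and 8 of 21 for IgG, beside 3900 of 21413 probes.

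Piwi proteins and their partners, which Tudor proteins bind or work with, had 0 higher, 3 lower and 11 not passing of 14 tested between the MVH and IgG precipitates, with a median of -0.03. Gpat2, an outer mitochondrial membrane protein needed for piRNA production, was lower, at 262 and 290 on the MVH arrays, against 1480 and 907 on the IgG arrays, and 369 and 439 on the total RNA arrays (-2.07 ± 0.31, limma adjusted p = 0.0172). Tex19.1, a guard against transposons, differed by -1.63 (adjusted p = 0.0315) and Mov10l1, the helicase that feeds precursors into the pathway, by -1.22 (adjusted p = 0.0394). Henmt1, which methylates piRNA ends, had 2 probes that disagreed in sign (0.88 and -0.90), neither of them passing. The mRNA of MVH itself, Ddx4, had 1400 and 1560 on the MVH arrays, against 1470 and 1390 on the IgG arrays, and 860 and 1310 on the total RNA arrays, and its precipitates overlapped (0.05 ± 0.30, adjusted p = 0.944). Of 8 genes for arginine methylation, Carm1 was higher (1.11, adjusted p = 0.0462) and Prmt1 lower (-1.68, adjusted p = 0.0353). The other 6 did not pass, among them Prmt5 (-1.04, adjusted p = 0.101), and the median was -0.51.

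Partners in the chromatoid body and in RNA decay had 5 higher, 1 lower and 15 not passing of 21 tested, with a median of 0.18. Ddx25, a testis helicase that moves mRNA into the chromatoid body, had the largest difference, at 959 and 1890 on the MVH arrays, against 279 and 199 on the IgG arrays, and 488 and 632 on the total RNA arrays (2.51 ± 0.38, limma adjusted p = 0.0172). Kif17, a kinesin found with that body, was higher by 2.10 (adjusted p = 0.0166), the decapping gene Dcp1a by 1.37 (adjusted p = 0.04) and the spermatid kinase gene Tssk1 by 1.08 (adjusted p = 0.0429). The list shares Tssk1 with the round spermatid markers and Hspa2 with the spermatocyte markers, so the call of Tssk1 is the same one as given above. Tnrc6c, a scaffold of miRNA silencing, was lower (-1.88, adjusted p = 0.0218). The share of genes called can be read against 7.97% of all probes in either direction. None of these counts tests whether a list differs from other genes or from another list. With only the 4 arrays compared, 0 of these genes stayed past the threshold. There, 0 of all 21574 probes passed, so that loss is not particular to these genes. Without MVH 2, none of their differences changed sign.

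**Figure D3:**
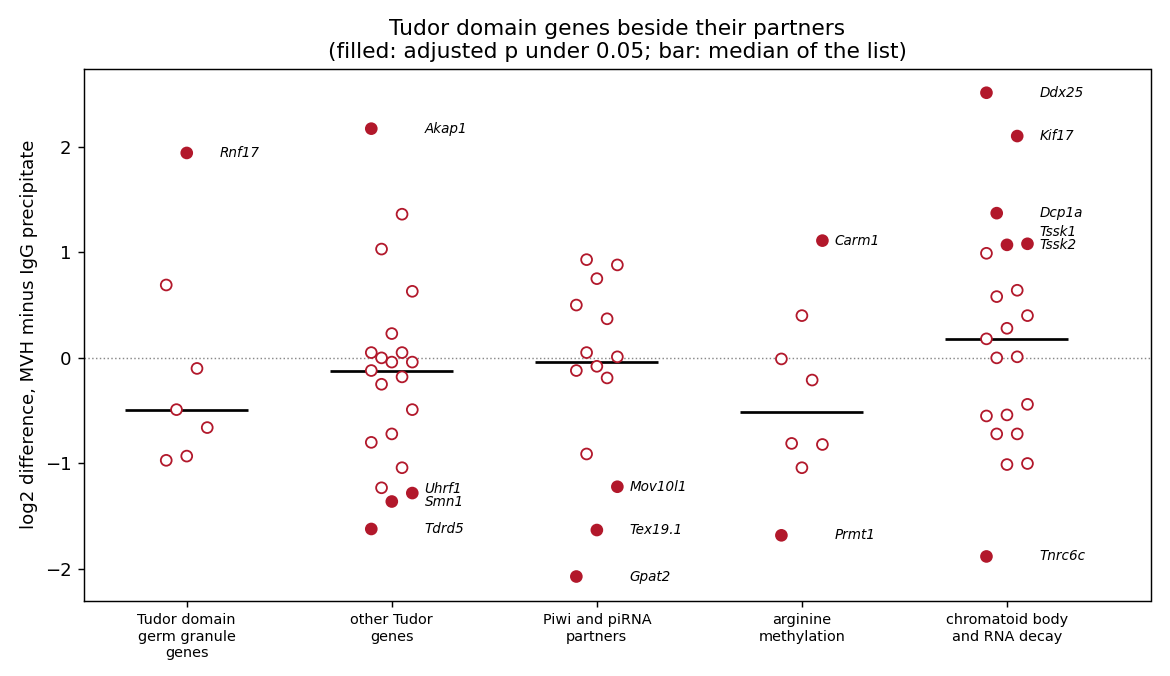
Log2 differences between the MVH and IgG precipitates for the 7 Tudor domain genes and 4 lists of related genes, 1 point per gene at its brightest probe; filled points passed an adjusted p of 0.05 and carry their symbol, and the bar is the median of the list. Rnf17 (1.94) and Akap1 (2.17) are the filled points above zero among genes with Tudor domains, and calls in both directions appear in 3 of the lists beside the 7 genes.

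Across 16 other ways of processing the arrays, the difference of Rnf17 between the precipitates ran from 1.24 to 2.64 and passed in 10, that of Tdrd6 ran from -1.21 to -0.65 and passed in 3, and that of Tdrd7 ran from -1.15 to -0.70 and passed in 4. Tdrd1 kept a positive difference (0.21 to 1.17), and Tdrd12 (-0.90 to -0.40) and Tdrkh (-0.70 to -0.22) kept negative ones, none passing.

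**Figure D4:**
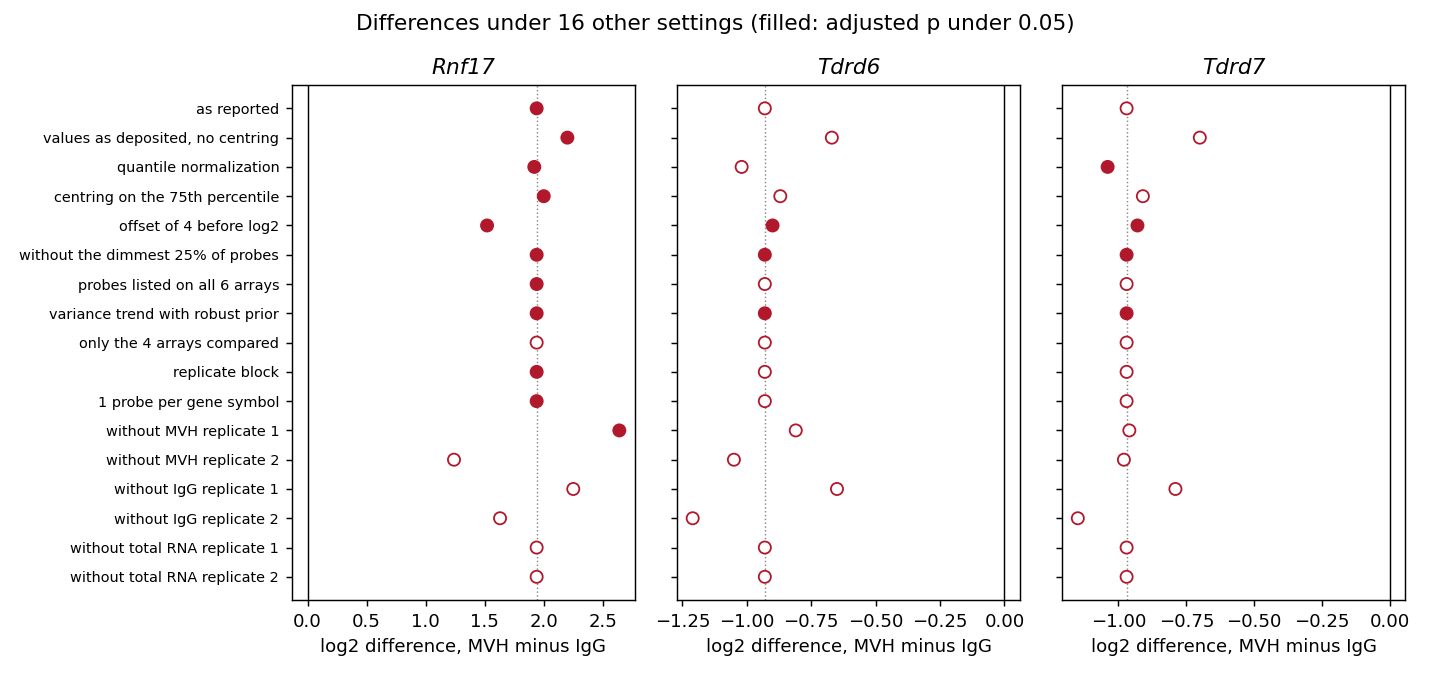
Log2 difference between the MVH and IgG precipitates for Rnf17, Tdrd6 and Tdrd7 as reported and under each of 16 other settings, each panel with its own axis; filled points passed an adjusted p of 0.05, the solid line marks zero and the dotted line the reported value. Rnf17 passed in 10 of the 16, Tdrd6 in 3 and Tdrd7 in 4, and no point crosses zero.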

How the data were processed

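RNA from mouse testis was measured on 6 arrays. Per the labels' protocols it was amplified as aminoallyl RNA, and each array carried a single Cy5-labelled sample. Protocol text on patients' tumours was not used. The authors deposited linear probe intensity. How it was scanned, background-corrected and scaled, and why some cells are blank, is not given in the sources used here. Platform symbols were updated through RefSeq synonyms (GRCm38.p6, names only). The symbol was current for 12622 probes, updated for 3947 and kept for 62. The other 6842 probes have no symbol here.

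Intensities were converted to log2 and centred on each array's median. A linear model over all 6 arrays was fitted with limma 3.58.1 in R 4.3.3 (3 residual degrees of freedom, prior 5.77). A comparison was tested where its 4 arrays had values. The steps were tested on simulated data. Plots used matplotlib 3.10.9. The number of arrays limits the precision. All probes of the 7 genes are named, then up to 4 called genes per list and direction, Ddx4, and the 3 genes nearest to each called gene of the 7. Genes, lists and tests were chosen with earlier results of these data known. The 16 alternatives changed scaling, offset, filters, spread estimate, replicate block and arrays used. They are not all separate checks. Between the precipitates, leaving out either total RNA array gives the same test as fitting only the 4 arrays compared. A lone total RNA array adds nothing to the estimate of spread.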

Additional observations from a re-analysis of the deposited data

How the results depend on the processing

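Of 336 alternative values for the 7 genes in 3 comparisons, 312 kept their direction and side of the threshold, 6 lost the call (all Rnf17 against IgG), 7 gained one (Tdrd6 and Tdrd7 against IgG) and 11 changed sign, all for values that had not passed. Between the precipitates, the number of the 7 genes called was 1 as reported, 2 with quantile normalization, 3 with an offset, without the dimmest probes or with a variance trend, 0 when only the 4 arrays compared were fitted, and 0 to 1 when 1 array was left out. With only the 4 arrays compared, the log2 differences were unchanged (1.94 for Rnf17, -0.93 for Tdrd6 and -0.97 for Tdrd7). Only the estimate of spread and its degrees of freedom differed there. For the other settings the cause was not tested. Leaving out an MVH or IgG array changes both the number of arrays and the difference itself, so the 2 cannot be told apart there.

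With no centring, Snd1 between the precipitates was 0.16, where the median of all probes moved to 0.34, and Tdrd12 in IgG against total RNA was -0.15. With 1 array left out, Ddx4 between the precipitates ran from -0.03 to 0.13. For MVH against total RNA, Tdrd1 ran from -0.10 to 0.51, Tdrkh from -0.15 to 0.41 (-0.09 without MVH 2) and Snd1 from -0.32 to 0.07. For IgG against total RNA, Tdrd12 ran from -0.12 to 0.35 (-0.01 without total RNA 1), Tdrd1 from -0.96 to 0.00, Rnf17 from -0.60 to 0.02 and Snd1 from -0.23 to 0.17.

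Over all probes, the calls between the precipitates, 1719 as reported, were 823 with no centring (702 higher and 121 lower, against 824 and 895), 2955 with an offset, 3116 without the dimmest probes, 3143 with a variance trend, 0 with only the 4 arrays compared, and 0 to 1327 with 1 array left out. For MVH against total RNA, 3 as reported, they were 19 with no centring, 8 with the 75th percentile, 92 with an offset, 123 without the dimmest probes, 30 with probes on all 6 arrays, 180 with a variance trend, 6 with only 4 arrays, 0 with 1 probe per gene, and 0 to 10 with 1 array left out. For IgG against total RNA, 2 as reported, they were 5 with no centring, 141 with quantile normalization, 211 with the 75th percentile, 1087 with an offset, 1183 without the dimmest probes, 469 with probes on all 6 arrays, 1253 with a variance trend, 1 with only 4 arrays, 99 with 1 probe per gene, and 0 to 58 with 1 array left out.

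With the replicate number as a block, the calls were 2263, 4 and 150, and 1 of the 7 genes, Rnf17, passed between the precipitates (adjusted p = 0.0412). With 2 numbers the labels do not show that arrays of 1 number are paired, and the deviations of same-numbered arrays correlated at 0.157, 0.156 and 0.101. Of the 24 related genes and markers called between the precipitates, 11 passed with no centring. With only the 4 arrays compared 0 of the 24 passed, and 0 of all 21574 probes. None of the 24 changed sign when 1 array was left out. Rnf17 and Tdrd1 are dim, which limits what their fold changes can show.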
